A study of Mus musculus with 2 samples.

Results

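The deposited peak table of an ATAC-seq study of mouse epidermis is sorted by position 3 times over, so that the sort order starts anew at 2 rows, and the first of these 3 sorted stretches (runs) held 9840 distinct nuclear peaks. These first-run peaks were chosen by the position of their rows in the table, with no signal value in the rule, after exact repeats had been merged to their first row and mitochondrial peaks had been left out. They made up 11.6% of the 84591 nuclear peaks, beside 8075 peaks of the second run and 66676 of the third. No peak stood in more than 1 run. Repeated rows lay within a run, and 3711 first-run peaks (37.7%) were listed more than once, a share near the 38.2% of the second run and the 37.4% of the third. The last row of the first run was chr10:118907950-118908197, where control had 4.94 normalized reads and ablation 10.88, and the next row opened the second run at chr1:3307163-3308176, with 9.88 and 13.6. What the runs stand for is not stated by any label or header, and the runs may have been formed from the signal itself, so differences in signal between them are described without a test.

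The study compared 2 libraries, each made from 50000 sorted basal epidermal cells of mouse skin. The control library came from wild-type skin (genotype WT) and the ablation library from skin whose genotype is given as basal lineage ablation. Both titles carry K14, the keratin of basal epidermal cells, and both sorts took cells with high α6 integrin that lacked CD34 and Lrig1 and were marked YFP+/GFP+/RFP+, so the gate and the reporters are shared by both groups. Age, sex, time after ablation, the agent used and the number of animals in each library are not stated in the labels. With 1 library per group there is no spread between animals, no test and no p-value, and every interval below is a 95% exact interval for counting error only.

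ATAC-seq uses a transposase that cuts and tags DNA where nucleosomes do not cover it, so a peak marks a stretch of open chromatin and its reads measure how open it is in the sampled cells. Open chromatin at gene starts tends to be shared among cell types, while open regions far from genes, many of them enhancers, differ more from one cell type or state to the next. Basal cells are the layer of the epidermis that lies on the basement membrane, divides and supplies the layers above, and in wounds they move and change their gene programme.

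Reads in nuclear peaks numbered 17056996 in control and 12463908 in ablation, and the mitochondrial genome took a further 7.31% and 31.2% of all reads in peaks. The first-run peaks received 185721 reads in control and 245448 in ablation, or 1.09% and 1.97% of the nuclear reads, with medians of 16 and 21 reads per peak against 76 and 62 over all nuclear peaks. Values below are the deposited normalized reads, in which 1 read is worth 0.706 in control and 0.907 in ablation. All 7 basal keratinocyte markers had peaks, with summed signal of 14628 in control and 13939 in ablation. Markers of other cell types also had peaks: all 6 suprabasal markers (5686 and 4730), all 6 hair follicle markers (5180 and 6028), 4 of 6 fibroblast markers (584 and 615, with none at Col1a2 and Lum), all 6 endothelial markers (3846 and 3946), all 6 myeloid markers (873 and 804), 2 of 5 T cell markers (404 and 502, with none at Cd3g, Cd3d and Trdc) and all 6 melanocyte markers (3492 and 3220). Fewer cells of one type and less open chromatin per cell cannot be told apart in such bulk libraries, and the part of other cell types in the results was not tested.

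Few first-run peaks covered the start of a gene, and those that did show what kind of start was listed. Of the 9840 peaks, 262 (2.66%) overlapped by at least 50 bp a window from 250 bases before to 50 bases after a RefSeq gene start, against 15.0% of the other nuclear peaks. They covered 285 windows. The 8075 second-run peaks, of near-equal median signal, covered 152, and the 66676 third-run peaks covered 14355. Few covered starts were thus not particular to the first run. The window table holds 17491 of the 21896 protein-coding genes (79.9%). The 4 windows of listed genes are printed first, since they belong to genes with known roles in skin: Cd34 (a surface protein of hair follicle bulge stem cells and of endothelium, and a marker that the sort gated out), Twist2 (a transcription factor of dermal fibroblasts and of epithelial-mesenchymal transition), Cdkn2a (the cell cycle inhibitors p16 and p19) and Kit (a receptor of melanocytes and mast cells). Sequences are from RefSeq on GRCm38.p6, read 5′ to 3′ on the strand of the gene, and capitals mark matches to any of the 9 motifs named after them.
Cd34, chr1:194938571-194938870, plus strand: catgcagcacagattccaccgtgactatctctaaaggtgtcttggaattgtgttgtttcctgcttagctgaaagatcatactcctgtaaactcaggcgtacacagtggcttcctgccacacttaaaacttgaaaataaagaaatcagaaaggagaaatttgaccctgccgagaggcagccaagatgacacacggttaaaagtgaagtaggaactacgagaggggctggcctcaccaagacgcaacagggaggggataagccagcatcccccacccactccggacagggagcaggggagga
Twist2, chr1:91801211-91801510, plus strand: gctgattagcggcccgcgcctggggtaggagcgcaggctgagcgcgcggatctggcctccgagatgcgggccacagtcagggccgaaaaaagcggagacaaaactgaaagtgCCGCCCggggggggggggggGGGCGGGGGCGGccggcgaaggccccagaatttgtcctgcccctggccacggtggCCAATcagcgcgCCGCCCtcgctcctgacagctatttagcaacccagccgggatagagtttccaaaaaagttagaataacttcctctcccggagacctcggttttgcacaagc
Cdkn2a, chr4:89282143-89282442, minus strand: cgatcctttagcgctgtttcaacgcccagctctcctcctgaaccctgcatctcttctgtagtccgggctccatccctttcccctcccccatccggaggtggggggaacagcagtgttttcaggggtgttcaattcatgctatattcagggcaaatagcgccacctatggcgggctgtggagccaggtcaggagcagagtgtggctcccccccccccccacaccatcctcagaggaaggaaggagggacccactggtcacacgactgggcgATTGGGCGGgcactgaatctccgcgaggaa
Kit, chr5:75574737-75575036, plus strand: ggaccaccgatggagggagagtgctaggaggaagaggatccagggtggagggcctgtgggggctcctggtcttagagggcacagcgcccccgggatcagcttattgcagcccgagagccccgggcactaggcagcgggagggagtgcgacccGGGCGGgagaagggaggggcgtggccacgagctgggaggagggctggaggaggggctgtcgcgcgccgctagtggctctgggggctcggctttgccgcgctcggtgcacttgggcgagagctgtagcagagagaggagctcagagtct
At the Cd34 start the peak had 8.47 normalized reads in control against 34.5 in ablation, 12 and 38 reads, a ratio of 4.07 (2.08 to 8.56). The Twist2 start had 8.47 and 22.7, a ratio of 2.68 (1.30 to 5.85), and it was the 1 peak assigned to that gene. Both intervals lie above 1, unlike those of Cdkn2a, with 8.47 and 15.4 (ratio 1.82, 0.820 to 4.18), and Kit, with 9.17 and 12.7 (ratio 1.38, 0.603 to 3.2). The Cd34 window held none of the motif letters searched, and the Twist2 window held the GC box on both strands and a CCAAT box.

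The motifs, searched on both strands, were AP-1 (TGANTCA), the GC box (GGGCGG), the CCAAT box (CCAAT), the TATA box (TATAAA), TEAD (GGAATG), RUNX (TGTGGT), ETS (CCGGAAG), the E-box of Snail and Zeb factors (CACCTG) and CRE (TGACGTCA), and some overlap each other, as the CCAAT and GC boxes do in the Cdkn2a window. AP-1 letters stood in 14.4% of the 285 windows under first-run peaks (41 windows), against 5.93% of windows under third-run peaks, 11.8% under second-run peaks and 7.81% of all 32851 windows. ETS letters, common in the CpG-rich starts of widely expressed genes, stood in 3.86% of them, against 16.9% under third-run peaks and 8.86% of all windows. GC boxes were found in 44.2%, against 66.0% and 35.7%, and CCAAT boxes in 23.9%, against 37.0% and 37.4%. TEAD letters were in 18.9%, against 11.8% and 14.7%, RUNX letters in 17.2%, against 11.8% and 16.8%, Snail and Zeb letters in 23.9%, against 19.0% and 20.2%, TATA boxes in 9.12%, against 6.31% and 13.6%, and CRE letters in 1.75%, against 3.13% and 1.79%. Under second-run peaks (152 windows) ETS letters stood in 5.26%, GC boxes in 42.8%, CCAAT boxes in 40.1% and TEAD letters in 10.5%. RUNX letters stood there in 15.8%, Snail and Zeb letters in 24.3%, TATA boxes in 14.5% and CRE letters in 1.32%. The windows under first-run peaks were poorer in CpG than those under third-run peaks, with medians of 10 and 21 CpG and 56.3% and 62.0% GC. They were close to all windows, with 7 CpG and 52.7% GC. Second-run windows had 6.5 CpG and 53.7% GC, so few ETS letters and low CpG were not particular to the first run. A pair of windows with AP-1 letters is printed, at Gpr39 (a zinc-sensing receptor) and Syt2 (a synaptic vesicle calcium sensor). The Gpr39 window has 8 CpG and 59.7% GC. The Syt2 window has 28 CpG and 68.3% GC, above the medians under third-run peaks. Both were chosen after their values were seen.
Gpr39, chr1:125676746-125677045, plus strand: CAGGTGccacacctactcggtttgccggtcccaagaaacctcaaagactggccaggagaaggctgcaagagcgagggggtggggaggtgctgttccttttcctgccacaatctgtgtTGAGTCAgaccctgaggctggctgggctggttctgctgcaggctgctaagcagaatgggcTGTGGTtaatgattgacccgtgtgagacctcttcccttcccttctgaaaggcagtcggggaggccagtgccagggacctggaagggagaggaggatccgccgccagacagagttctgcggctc
Syt2, chr1:134709050-134709349, plus strand: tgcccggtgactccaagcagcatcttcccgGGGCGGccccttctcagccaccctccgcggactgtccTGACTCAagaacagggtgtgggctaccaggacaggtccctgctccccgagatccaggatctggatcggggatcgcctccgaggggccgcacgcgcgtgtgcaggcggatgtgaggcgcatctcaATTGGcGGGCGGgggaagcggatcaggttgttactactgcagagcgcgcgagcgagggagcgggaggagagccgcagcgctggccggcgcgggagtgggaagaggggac
The Gpr39 peak had 16.2 in control and 34.5 in ablation (ratio 2.12, 1.23 to 3.73) and the Syt2 peak 14.8 and 31.7 (ratio 2.14, 1.21 to 3.87). The strongest peaks over starts are represented by Rusc1 (a signalling adaptor), which holds RUNX, TEAD and GC box letters, and Vsig8 (an immunoglobulin-domain protein of hair and nail), which holds CRE letters.
Rusc1, chr3:89093314-89093613, minus strand: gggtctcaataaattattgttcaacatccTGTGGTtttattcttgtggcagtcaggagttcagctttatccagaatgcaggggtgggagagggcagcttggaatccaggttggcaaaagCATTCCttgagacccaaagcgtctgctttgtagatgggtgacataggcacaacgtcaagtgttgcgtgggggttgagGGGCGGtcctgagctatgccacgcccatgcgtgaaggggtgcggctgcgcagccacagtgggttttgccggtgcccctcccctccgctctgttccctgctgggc
Vsig8, chr1:172559656-172559955, plus strand: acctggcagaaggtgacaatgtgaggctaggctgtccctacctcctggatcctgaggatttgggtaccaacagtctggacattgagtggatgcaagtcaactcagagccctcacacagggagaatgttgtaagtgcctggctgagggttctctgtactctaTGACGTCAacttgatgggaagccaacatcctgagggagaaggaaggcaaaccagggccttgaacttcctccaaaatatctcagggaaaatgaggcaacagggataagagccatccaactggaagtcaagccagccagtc
Here the differences were smaller. Rusc1 had 50.8 in control and 76.2 in ablation (ratio 1.5, 1.08 to 2.08), and Vsig8 had 47.3 and 68.0 (ratio 1.44, 1.02 to 2.03).

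Of 1005 microRNA hairpins in the RefSeq table, 118 lay under a nuclear peak and 7 of these under a first-run peak. The 2 with the highest ratios are printed, with the seed (bases 2 to 8) in capitals; none of these 4 seeds is shared. The chr9:51103562-51103645 hairpin on the minus strand is Mir34b, a microRNA known as a target of p53, and the chr7:144009254-144009338 hairpin on the plus strand is Mir3105.
mmu-miR-34b-5p: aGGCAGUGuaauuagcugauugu
mmu-miR-34b-3p: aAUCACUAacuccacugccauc
mmu-miR-3105-5p: aGAGCAAGcccguaagcagcgu
mmu-miR-3105-3p: aCUGCUUAugagcuugcacucc
The peak over Mir34b had 6.35 normalized reads in control and 21.8 in ablation (9 and 24 reads), a ratio of 3.43 (1.54 to 8.38). The peak over Mir3105 had 10.6 and 31.7 (15 and 35 reads), a ratio of 3.00 (1.60 to 5.91). At the hairpins of Mir1955, Mir6241, Mir8095, Mir802 and miR-9718 the ratio lay between 1.35 and 2.02 with intervals that included 1.

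The first-run peaks were weak, short and mostly higher in ablation. Their median signal was 11.3 normalized reads in control and 19.0 in ablation, against 17.6 and 12.7 in the second run and 79.7 and 82.5 in the third. Their median length was 252 bp (133 to 1437), near the 223 bp of the second run and under the 653 bp of the third. Length followed signal: among peaks in the fifth signal decile of first-run peaks, the median length was 253 bp inside the run and 245 bp outside it. In the top decile the lengths differed, with 301.5 bp inside and 714 bp outside. This class has no upper limit and holds 56824 other peaks, so it is no comparison at like signal. Second-run peaks in it had a median of 229 bp and third-run peaks 723 bp, so short peaks there were not particular to the first run.

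Ablation exceeded control at any size in 8875 first-run peaks (90.2%), against 49.4% of all nuclear peaks. The median log2 ratio of ablation to control, with 1 normalized read added to both, was 0.76 over all of them, with 5% of the peaks below -0.20 and 5% above 2.0, against -0.01 over all nuclear peaks. At least 2-fold higher signal in ablation was found in 3516 (35.7%), against 6.14% of all nuclear peaks, and at least 2-fold lower signal in 12, against 2.98%. A ratio of at least 4 was seen in 498 peaks (5.06%), while 3752 (38.1%) lay within 1.5-fold in either direction, so the run was not a list of large changes. For these bands the shares over all nuclear peaks were not worked out. Ablation had reads in every first-run peak, while control had 0 reads in 18, which allows up to 2.12 normalized reads each. The rule may rest on these same values, so the counts describe the run and support nothing beyond it.

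A mean signal of 13.96 normalized reads, the 10th percentile of all nuclear peaks, was reached by 5731 first-run peaks (58.2%), against 98.8% of the third run. Since a peak of this strength passes more easily when either library is high, the count of peaks past the filter is no support for a difference. Among them the median log2 ratio was 0.71, with 1790 peaks (31.2%) at least 2-fold higher in ablation, against 4.48% of all nuclear peaks past the filter, and 2 at least 2-fold lower, against 1.88%. When each library was divided by all its reads in peaks, mitochondrial reads included, every log2 ratio moved by -0.34, the median became 0.39 and 964 peaks were at least 2-fold higher, against 1.86% of all peaks past the filter. The first-run median lay 0.72 above that of all peaks as deposited and 0.73 above it after this division.

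Peaks at least 2-fold higher were found at every strength. In the weakest decile of first-run peaks, 53.7% had a ratio of at least 2, with medians of 4.23 in control and 9.07 in ablation. In the middle deciles the share ran from 32.5% to 35.0%, in the fourth to the ninth. In the strongest decile it was 22.5%, with medians of 31.1 and 48.1. Over all nuclear peaks the share was 6.14%. It was not worked out for other peaks by signal class, so these shares cannot be set beside peaks of equal strength. First-run peaks made up 45.4% to 50.7% of all nuclear peaks in the 5 weakest of these signal classes and 1.70% in the strongest class.

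**Figure D1:**
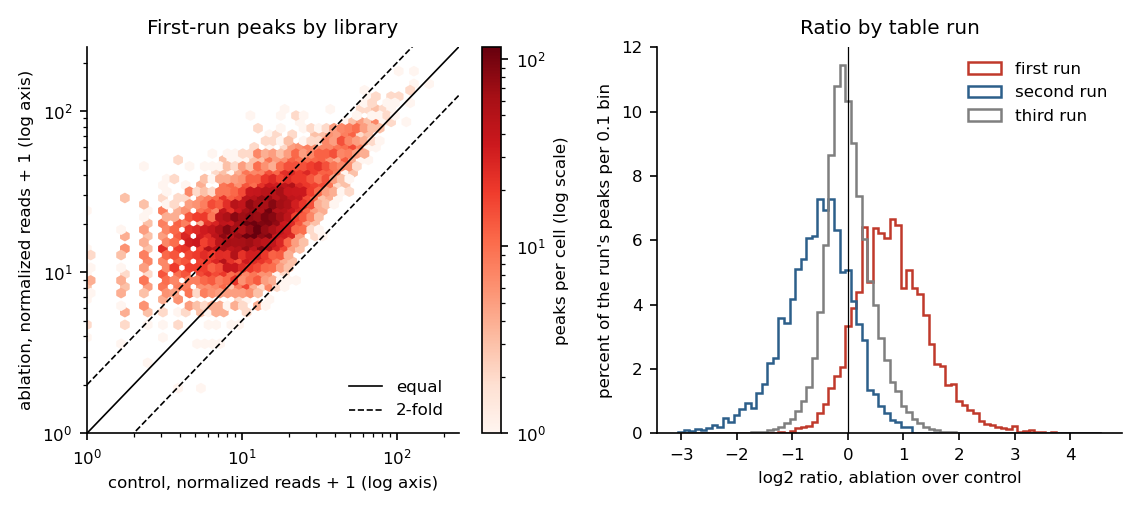
Left: normalized reads plus 1 of the 9840 first-run peaks in control (horizontal, log axis) and ablation (vertical, log axis), with colour for the number of peaks and dashed lines at 2-fold. Right: distribution of the log2 ratio of ablation to control (horizontal) as percent of each run's peaks (vertical); the first run is centred at 0.76, the second at -0.50 and the third at -0.03.

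Members at the edges of the ratio show the range. Among first-run peaks of at least median strength, the highest ratio was in the gene body of Runx2 (a transcription factor of bone formation that is also active in skin and hair), at chr17:44502183-44502476, which had 1.41 normalized reads in control and 46.3 in ablation. These are 2 and 51 reads, a ratio of 32.8 with an interval from 8.62 to 278. In the gene body of Sugct (a mitochondrial enzyme of glutarate metabolism) a peak had 2.82 and 48.1, a ratio of 17.0 (6.27 to 64.8). Dnm3 (a dynamin of membrane traffic) had a peak with 3.53 and 45.4, a ratio of 12.9 (5.16 to 41.3). Cfap299 (a gene named for cilia and flagella) had one with 2.12 and 29.9, a ratio of 14.1 (4.44 to 72.0). All of these rest on 5 or fewer reads in control, which their wide intervals show. More reads stood behind a peak in Ctsh (cathepsin H, a lysosomal protease) at chr9:90060614-90061364, with 10.6 in control and 88.9 in ablation, 15 and 98 reads, a ratio of 8.40 (4.85 to 15.6). A peak 34.2 kb from Elk3 (an ETS-domain repressor) had 4.94 and 44.4, a ratio of 9.0 (4.05 to 23.5), one in Col13a1 (a transmembrane collagen of adhesion sites) had 3.53 and 33.6, a ratio of 9.51 (3.73 to 31.0), and one 22.3 kb from the imprinted gene Rtl1 had 2.82 and 36.3, a ratio of 12.9 (4.65 to 49.5).

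At the other end, among peaks of at least median strength assigned to a named gene, the lowest ratios lay between 0.508 and 0.597. A peak 13.7 kb from Ctr9 (a subunit of the PAF1 elongation complex) had 30.3 in control and 15.4 in ablation, a ratio of 0.508 (0.272 to 0.910). One 5.68 kb from Ephb3 (an ephrin receptor of cell sorting) had 28.9 and 15.4, a ratio of 0.533 (0.284 to 0.959), and one in Sult2b1 (cholesterol sulfotransferase of the cornifying epidermis) had 48.7 and 29.0, a ratio of 0.596 (0.379 to 0.919). In Stat3 (a transcription factor of cytokine signals needed for wound closure), Spr, Tmtc1, Ngef and Stk24 the ratio lay between 0.551 and 0.597 with intervals that included 1.

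The 8 strongest first-run peaks were near equal in both libraries or modestly higher in ablation, and several lay at epidermal and stress genes. Atf3 (a stress-induced AP-1 family factor) had a peak at chr1:191173818-191174125 with 160 in control and 145 in ablation, a ratio of 0.906 (0.735 to 1.11). Jund (an AP-1 subunit) had one 0.035 kb outside the gene with 129 and 169, a ratio of 1.31 (1.06 to 1.61). Sfi1 (a centrosomal protein) had 104 and 176, a ratio of 1.70 (1.36 to 2.12), the highest of the 8. For Plec (plectin, which ties keratin filaments to hemidesmosomes), Krt80 (a keratin of differentiating epithelia), Ahnak2, Btg1 and a second peak near Ephb3 the ratio lay between 0.913 and 1.28, with intervals that included 1.

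First-run peaks were more distal than the other peaks as a whole. Of the 9840 peaks, 732 (7.44%, 6.93 to 7.98) lay at most 1 kb from the start or the end of a protein-coding gene, against 19.5% of all other nuclear peaks. In gene bodies away from the ends lay 47.3%, against 41.7% of the other peaks, and 45.2% were intergenic and away from gene ends, against 38.8%. Outside every protein-coding gene, whether near its end or not, lay 47.5%, against 40.5%, and 17.0% were over 50 kb from any protein-coding gene, against 13.1%. Other weak peaks were distal too, so the other peaks were also weighted to the signal of the first-run peaks. With weights over 10 signal classes 7.37% of the other peaks were at gene ends, inside the interval of the first-run share, and with 50 finer classes, a choice made after the values were seen, it was 5.94%, below that interval. Whether first-run peaks differed from peaks of like signal at gene ends thus depended on the classes used. The top one of the 10 classes has no upper limit and holds 56824 other peaks, so those are not all equally weak. Away from genes the direction turned at like signal: 47.1% of the other peaks were intergenic with 10 classes and 47.8% with 50, above the first-run share of 45.2% (44.2 to 46.2), and 18.6% and 18.9% were over 50 kb from a protein-coding gene, above 17.0% (16.2 to 17.7). First-run peaks were therefore more distal than all other peaks and slightly less distal than equally weak ones. Second-run peaks were at gene ends in 5.86%, below the first-run interval, and third-run peaks in 21.1%. The second run, with a median mean signal of 15.0 against 15.2 in the first, was intergenic in 46.2% and over 50 kb away in 17.5%. Both shares lay inside the first-run intervals.

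**Figure D2:**
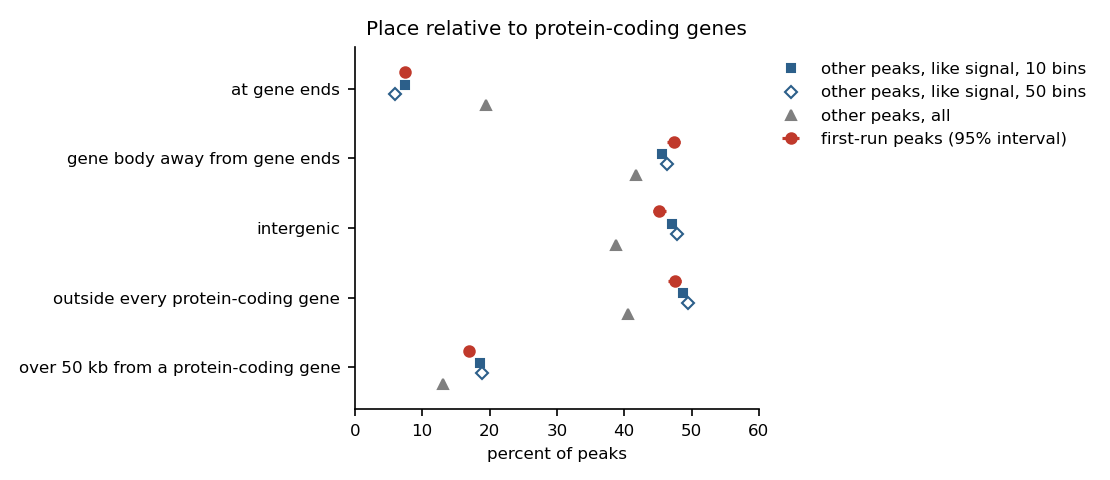
Percent of peaks (horizontal) in each class of place relative to protein-coding genes (vertical) for the 9840 first-run peaks with 95% intervals, for all other nuclear peaks, and for other peaks weighted to the same signal in 10 or 50 classes. First-run peaks sit at 7.44% at gene ends, far from the 19.5% of all other peaks. At like signal the share is 7.37% with 10 classes and 5.94% with 50.

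First-run peaks were found on the autosomes, X and Y. On the 19 autosomes they made up 10.5% to 12.8% of nuclear peaks, and their median log2 ratio ranged from 0.63 to 0.82. On the X chromosome they were 172 of 1794 peaks (9.59%), a share below that of every autosome. Of the 24 peaks on the Y chromosome 5 were first-run peaks, among them a pair in Uty (a histone demethylase relative), with 9.17 and 22.7 normalized reads and with 11.3 and 43.5, and one in Ddx3y (an RNA helicase), with 9.17 and 27.2. All 3 were higher in ablation, as were 90.2% of all first-run peaks. The 3 ratios were 2.47 (1.22 to 5.26), 3.86 (2.15 to 7.27) and 2.97 (1.5 to 6.19).

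First-run peaks lay next to each other more often than their share of all peaks. Counting the peak before and the peak after each of them in genome order, which counts a peak between 2 of them from both sides, 3470 of 19673 neighbours (17.6%) were first-run peaks, against 11.6% of all nuclear peaks. The neighbours counted this way were second-run peaks in 8.26%, against 9.55%. Second-run peaks showed a like pattern among themselves, at 13.0% against 9.55%. The nearest other first-run peak was a median of 39.2 kb away (quartiles 12.6 and 96.4), and 2117 peaks (21.5%) had one within 10 kb.

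Strings of 2 or more first-run peaks with no other peak between them held 3068 of the peaks, 17 strings had at least 5 peaks and 6 had at least 6. The longest held 12 peaks at chr3:152814000-153313501, across St6galnac3 (a sialyltransferase that adds sialic acid to glycoproteins and gangliosides) and the neighbouring Pigk (an enzyme that attaches GPI anchors). It spanned 499.5 kb, and its summed signal was 84.7 in control and 309 in ablation, 120 and 341 reads, a ratio of 3.65 (2.96 to 4.54). All 12 peaks were higher in ablation and 10 at least 2-fold. Of all first-run peaks 90.2% were higher and 35.7% at least 2-fold, so the direction within a string follows largely from the run. The strongest peak, within St6galnac3, had 16.2 and 79.8, and the weakest difference, also within the gene, was 8.47 and 11.8. The string was bounded by third-run peaks with 140 and 122 on one side and 46.6 and 61.7 on the other, so the bounding peak on the Pigk side was not higher in ablation.

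A gene desert held the second longest. Its 7 peaks at chr10:120603157-120702164 lay between Hmga2 (a chromatin architectural protein of fetal and migrating cells), 126.7 kb from the string, and Msrb3 (a methionine sulfoxide reductase), 78.9 kb away on the other side. Summed signal was 44.5 in control and 243 in ablation, a ratio of 5.47 (4.14 to 7.31). In genome order the 7 peaks had 6.35, 12, 2.12, 1.41, 5.65, 9.17 and 7.76 in control and 30.8, 54.4, 20.9, 14.5, 52.6, 55.3 and 14.5 in ablation. Each was higher in ablation, and 6 of the 7 at least 2-fold, against 90.2% and 35.7% of all first-run peaks. Here the bounding third-run peaks were higher in ablation as well, with 57.9 and 121 on the one side and 31.1 and 74.4 on the other.

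A string of 6 at chr9:111587672-111758627 had 2 peaks in Stac (a regulator of voltage-gated calcium channels) and the rest 41.3 to 67.6 kb outside it. All were at least 2-fold higher in ablation, with summed signal of 50.1 and 210 and a ratio of 4.2 (3.21 to 5.56). Over all first-run peaks 35.7% were at least 2-fold higher. The string of 6 at Slfn2 and Slfn3 (interferon-inducible growth regulators of immune cells), at chr11:83063910-83193442, had 45.2 and 141, a ratio of 3.11 (2.31 to 4.23). Its 4 peaks by Slfn2 were each at least 2-fold higher, with log2 ratios from 1.69 to 2.44, while the pair by Slfn3 had 0.34 and 0.87, so the string was uneven. At Layn (a hyaluronan receptor), Btg4 and Hoatz, chr9:51058932-51158168, the 6 peaks had 66.3 and 148, a ratio of 2.23 (1.72 to 2.90), and 1 of them is the peak over Mir34b. At Fcgr1 (the high-affinity IgG receptor of macrophages), chr3:96293325-96402556, the 6 peaks had 65.6 and 141, a ratio of 2.16 (1.66 to 2.82), of which one peak near BC107364 gave 14.8 and 62.6. Fcgr1, Slfn2 and Slfn3 are known from immune cells. Summed signal at the fixed myeloid markers was 873 in control and 804 in ablation, with medians per marker of 58.6 and 59.9. The part of such cells in these strings was not tested.

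**Figure D3:**
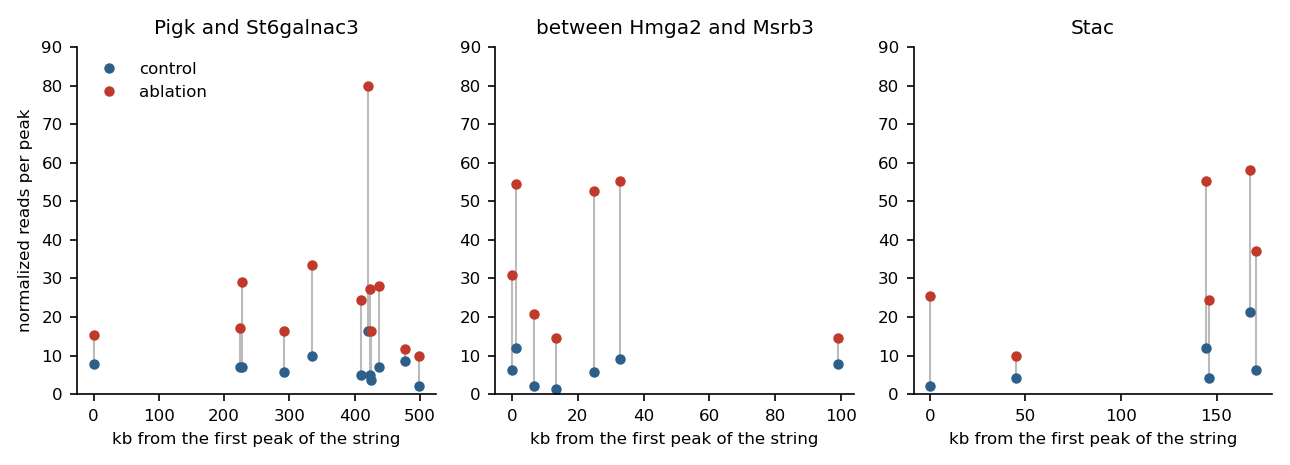
Normalized reads per peak (vertical) in control and ablation for 3 strings of neighbouring first-run peaks, by distance in kb from the first peak of the string (horizontal); grey lines join both libraries. Every peak of the 12 at Pigk and St6galnac3, the 7 between Hmga2 and Msrb3 and the 6 in or outside Stac is higher in ablation. Of all first-run peaks 90.2% are.

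Peaks outside the first run had higher ratios of ablation to control the closer they lay to a first-run peak. Third-run and second-run peaks past the filter and within 1 kb had a median log2 ratio of 0.07 (1644 peaks), those at 1 to 5 kb 0.02, at 5 to 10 kb 0.01, at 10 to 50 kb -0.03, at 50 to 100 kb -0.06, and those over 100 kb away -0.09 (18503 peaks). Other peaks weighted to the same signal stayed between -0.02 and 0.00 at all these distances and did not show this slope. Over all 70416 of these peaks the median was -0.04 and the weighted value -0.01. The weighted values thus serve to compare the slope with distance and not the level. In third-run peaks alone the median ran from 0.09 to -0.07. In second-run peaks it ran from -0.31 within 1 kb (76 peaks) to -0.50 beyond 100 kb, so these were lower in ablation at every distance. From the nearest to the farthest class, the share at least 2-fold higher was 4.99% and 1.66%, and the share at least 2-fold lower 0.791% and 3.16%. Differences of this size are small beside the 0.71 of the first-run peaks themselves. The sign at short range depends on the scaling: divided by all reads in peaks, which moves all ratios by about the same amount, the medians were -0.26 within 1 kb and -0.43 beyond 100 kb.

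**Figure D4:**
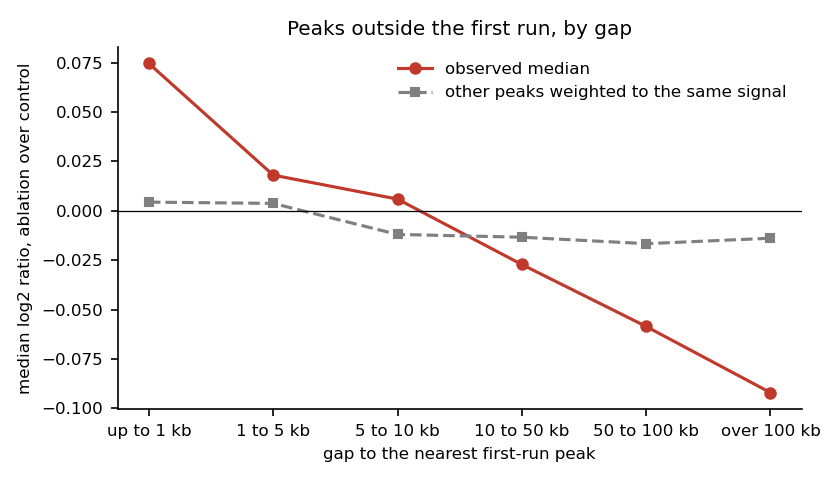
Median log2 ratio of ablation to control (vertical) of nuclear peaks outside the first run, by gap to the nearest first-run peak (horizontal), and the same for other peaks weighted to equal signal. The observed median falls from 0.07 to -0.09, while that of peaks of like signal stays between -0.02 and 0.00. Over all distances the values are -0.04 and -0.01, so slopes can be compared but levels cannot.

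By gene, 8169 first-run peaks were assigned to a protein-coding gene that they overlap or that lies nearest within 50 kb, and 1671 had none. Of 16700 genes with a peak 5181 had a first-run peak: 3438 had 1, 1041 had 2, 565 had 3 or 4 and 137 had at least 5. The other peaks of a gene leaned with this number, with median log2 ratios of -0.09 for genes with none, -0.06 with 1, -0.04 with 2, -0.01 with 3 or 4 and 0.03 with at least 5. Genes with more first-run peaks also had more peaks in all, a median of 18 others for those with at least 5 against 2 for those with none.

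The 12 genes with the most first-run peaks were long genes, several of them known from the nervous system or from adhesion. Adamtsl1 (a secreted matrix protein) had 13 of its 35 peaks in the first run, where 26.6% of peaks of the same signal are first-run peaks against its 37.1%. Their summed signal was 136 in control and 239 in ablation, a ratio of 1.76 (1.45 to 2.13), and its 22 other peaks together had a ratio of 1.25 (1.14 to 1.36). Trabd2b (Tiki2, a protease that inactivates Wnt ligands) had 10 of 36, or 27.8% against 12.7% at its signal, with a ratio of 1.92 (1.61 to 2.3), while its other peaks had 0.958 (0.915 to 1.00). Ank3 (ankyrin-G, an adaptor of membrane and cytoskeleton) had 9 of 39, or 23.1% against 11.5%, with a ratio of 2.09 (1.68 to 2.61) and 1.00 in its other peaks. Macrod2 and Auts2 had 12 of 72 each, 16.7% against 15.3% and 15.6%, close to what their signal gives. The remaining genes were Etl4 (12 of 45), Arhgap26 (10 of 56), Nav2 (10 of 47), Tenm4 (10 of 54), Snd1 (10 of 35), Nfib (9 of 40) and Pakap (9 of 29), with ratios from 1.45 to 1.98. All 12 genes were above 1 in their first-run peaks both as deposited and after division by all reads in peaks. Of all first-run peaks 90.2% and 77.8% were higher in ablation under these scalings. The direction thus follows from the run and says nothing about these genes.

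In 370 genes every assigned peak was a first-run peak, 308 of which had a single peak. Ranked by share among genes with at least 4 first-run peaks, an order chosen after the values were seen, Slfn2 and Ccl8 (a monocyte chemokine) led with 4 of 4. The 4 peaks of Slfn2 summed to 24.7 in control and 109 in ablation, a ratio of 4.41 (3.00 to 6.62), and those of Ccl8 to 34.6 and 73.5, a ratio of 2.12 (1.47 to 3.09). St6galnac3 had 8 of 9, with a ratio of 4.05 (3.14 to 5.26), and Stac 4 of 5, with 5.10 (3.44 to 7.77). Dysf (dysferlin, which reseals membranes) had 6 of 7 and a ratio of 2.68 (2.05 to 3.53), Cubn (an endocytic receptor) 5 of 6 and 3.33 (2.54 to 4.42), Akr1d1 (a steroid reductase) 5 of 6 and 2.75 (1.95 to 3.93), and Igfl3 5 of 6 and 2.51 (1.83 to 3.46). In this group Mroh4 (1.60, 1.18 to 2.17), Fcgr1 (1.55, 1.12 to 2.15) and Traf1 (an adaptor of TNF receptors, 1.55, 1.11 to 2.17) had the lowest ratios.

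The genes of 24 lists for the epidermis, wounds, signalling and other skin cell types held between 3.76% and 19.3% first-run peaks, against 11.6% of all nuclear peaks and a value at the list's own signal that is given beside each. Of these lists 16 were above that value and 8 below. The Runx, Ets and Mecom factors, transcription factors of epithelial and blood lineages, had the highest share, 39 of 202 peaks or 19.3% against 12%, and 13 of their 22 first-run peaks past the filter had a ratio of at least 2, against 31.2% of all first-run peaks past the filter and 4.48% of all nuclear ones. Runx2 had 7 of 22, summing to 51.5 in control and 132 in ablation, a ratio of 2.55 (1.91 to 3.43), with the peak of 2 and 51 reads among them and a pair of peaks that was lower in ablation (8.47 and 8.16, 18.3 and 13.6). Runx3 had 5 of 8, all higher in ablation, as were 90.2% of all first-run peaks. Of the 5, 4 lay outside the gene with 14.8, 18.3, 6.35 and 12 in control and 42.6, 38.1, 19.95 and 35.4 in ablation. The sum over all 5 gave a ratio of 2.44 (1.89 to 3.15). Elk3 had 5 of 16 and a ratio of 3.02 (2.29 to 4.01), and its 11 other peaks together had 1.71 (1.55 to 1.88). Ehf (an epithelial ETS factor) had 7 of 25 with 1.57 (1.25 to 1.97), and 0.961 (0.909 to 1.02) in its other peaks.

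Hair follicle factors had 30 of 191 first-run peaks, 15.7% against 10.5% at their signal, with 8 of 20 past the filter at least 2-fold higher, near the 31.2% of all first-run peaks past the filter. Nfib (a factor of follicle stem cells) had 9, with a ratio of 1.67 (1.36 to 2.05). Lgr6 (a receptor of isthmus and interfollicular stem cells) had 4 of 14, all in the gene body, with 14.8, 36.7, 12.7 and 17.6 in control and 37.2, 73.5, 18.1 and 39.9 in ablation, a ratio of 2.06 (1.63 to 2.62). Lgr5 (a receptor of follicle stem cells) had 3 of its 5 peaks, with 1.66 (1.14 to 2.45), and Nfix 3 of 22, with 1.41 (0.981 to 2.04). The follicle markers as a whole summed to 5180 in control and 6028 in ablation, and the part of follicle cells in these values was not tested.

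Extracellular matrix genes had 21 of 149, 14.1% against 10.7%. Col4a1 (basement membrane collagen IV) had 4 of 15 with 41.6 and 102, a ratio of 2.44 (1.76 to 3.4), against 1.15 (1.04 to 1.27) in its 11 other peaks. Col5a1 (a fibrillar collagen) had 4 of 13 with 37.4 and 95.2, a ratio of 2.55 (1.81 to 3.61), against 1.31 (1.21 to 1.41) in its 9 other peaks. Col4a2, the partner of Col4a1, had 3 of 10 and 1.24 (0.857 to 1.80), and Lamc1 (a laminin chain) 4 of 18 and 1.37 (1.02 to 1.83). Fibroblast markers had 3 of 19, 15.8% against 10.6%. All peaks of the 6 fixed fibroblast markers summed to 584 in control and 615 in ablation. The median per marker was 20.8 in control and 30.8 in ablation, so the sum rests on few markers. The part of fibroblasts in the matrix gene values was not tested. The 3 peaks were at Twist2, Pdgfrb with 9.88 and 22.7 (ratio 2.3, 1.15 to 4.78) and Dcn with 14.1 and 20.9 (ratio 1.48, 0.776 to 2.84).

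AP-1 subunits, the stress and growth factors that bind TGANTCA, had 10 of 100, 10.0% against 5.37% at their high signal, with 1 of 10 at least 2-fold higher, against 31.2% of all first-run peaks past the filter. Jdp2 (an AP-1 repressor) had 3 of 13, with 9.88, 11.3 and 15.5 in control and 42.6, 17.2 and 12.7 in ablation, so 1 peak carried the gene's ratio of 1.98 (1.38 to 2.86). Jun had 2 of 12 with 1.5 (1.03 to 2.18). Inflammation and NF-kB genes had 23 of 199, 11.6% against 8.82%, with Il19 (an IL-10 family cytokine of keratinocytes) at 2 of 4 peaks and a ratio of 2.57 (1.75 to 3.82), Nfkb1 at 3 of 28 and 1.87 (1.34 to 2.62), Tnfaip3 (A20, an NF-kB inhibitor) at 4 of 17 and 1.45 (1.07 to 1.97), and Il1b at 3 of 10 and 1.47 (0.95 to 2.28). Interferon response genes had 5 of 31, 16.1% against 12.6%, and Oas1a had 4.23 and 15.4 in its 1 first-run peak, a ratio of 3.64 (1.37 to 11.3).

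Genes of the epidermal layers held few, near the number that their signal gives. Basal epidermis genes had 19 of 217, 8.76% against 8.33%, of which 5 lay by Lama3 (a chain of laminin-332) with a ratio of 1.19 (0.981 to 1.45), 4 by Dst (BPAG1, of hemidesmosomes) with 1.64 (1.24 to 2.18) and 2 by Trp63 (p63, the master factor of stratified epithelia) with 0.948 (0.630 to 1.42). Suprabasal and cornified genes had 5 of 133, 3.76% against 3.83%, the lowest share of the 24 lists. Wound keratins and alarmins had 2 of 22, 9.09% against 11.9%, with Krt6a (a keratin induced in wounds) at 8.47 and 20.9, a ratio of 2.46 (1.18 to 5.43), and S100a9 at 10.6 and 10.9. At the share of equally strong peaks these 3 lists would hold 18.1, 5.09 and 2.61 first-run peaks, so all 3 were near that share.

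Signalling lists lay near the value at their signal. TGF-beta and BMP genes had 20 of 197 (10.2% against 8.95%), with Tgfb2 at 4 of 21 and a ratio of 1.82 (1.34 to 2.49). EGF family genes had 14 of 162 (8.64% against 9.20%), with Tgfa (a growth factor of keratinocyte migration) at 4 of 20 and 2.08 (1.52 to 2.86). Wnt genes had 19 of 228 (8.33% against 7.78%), where Wnt7a had 2 of 13 and 2.50 (1.68 to 3.79), and its 11 other peaks had 1.72 (1.56 to 1.89). Notch genes had 9 of 120 (7.50% against 6.43%), and YAP and TEAD genes 12 of 128 (9.38% against 7.31%), 6 of them by Tead1, with 1.64 (1.25 to 2.15). These shares differ from the values at like signal by few peaks.

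Lists for the cytoskeleton and for cell movement gave like results. Cell-cell junction genes had 14 of 208 (6.73% against 8.0%), where Ctnnd1 (p120-catenin, which stabilizes cadherins) had 2 of 13 with 17.6 and 78.0, a ratio of 4.42 (2.80 to 7.21), against 0.884 (0.818 to 0.956) in its 11 other peaks. Both Ctnnd1 peaks lay outside the gene, 37.1 and 35.0 kb away, and the first had 2 reads in control. Actomyosin and adhesion genes had 11 of 145 (7.59% against 6.42%), with Rhoc at 2 of 4 and 2.11 (1.48 to 3.03). Wound migration genes had 10 of 118 (8.47% against 9.98%), with Itga5 (the fibronectin receptor subunit) at 1 of 8 and 2.42 (1.48 to 4.06), and regulators of epithelial-mesenchymal transition 6 of 42 (14.3% against 13.5%). Cell cycle genes had 11 of 119 (9.24% against 9.52%), where Cdk6 had 3 of 31 with 2.96 (1.71 to 5.28) and Cdkn2a 2 of 6 with 19.8 and 73.5, a ratio of 3.72 (2.39 to 5.94). Of the Cdkn2a pair, the peak 16.4 kb outside the gene had 11.3 and 58.0, against 8.47 and 15.4 in the gene body. Single genes with large ratios thus stood in lists whose share of first-run peaks was near that of equally strong peaks.

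Markers of other skin cells were few in number. Endothelial markers had 7 of 55 (12.7% against 12.5%), with Flt1 (a VEGF receptor) at 2 of 12 and 2.28 (1.40 to 3.81). Melanocyte markers had 5 of 33 (15.2% against 22.4%), Langerhans and myeloid markers 2 of 20 (10.0% against 8.51%) and T cell markers 1 of 14 (7.14% against 17.8%), the latter by Cd28 with 14.1 and 14.5. Over the 24 lists the median log2 ratio of first-run peaks was above 0 in each as deposited and in 23 after division by all reads in peaks. Over all first-run peaks past the filter the median was 0.71 and 0.39 under these scalings. The sign in the lists thus follows from the run and says nothing about the lists. Lists share some genes, Twist2 among them, and peaks of 1 gene are not independent.

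**Figure D5:**
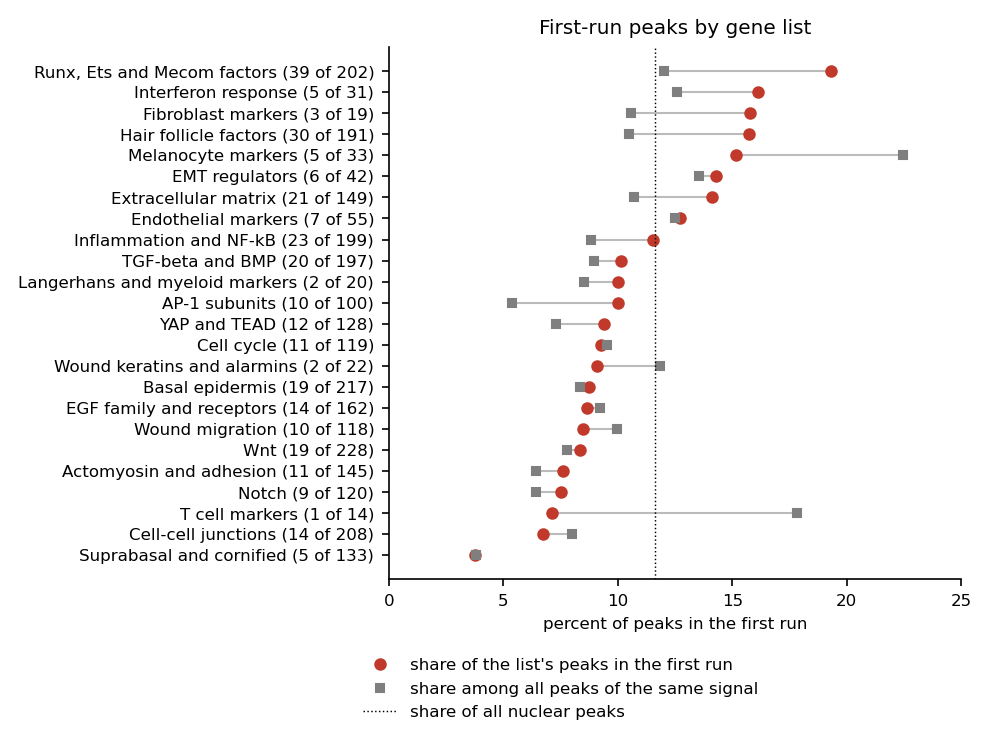
Percent of the peaks of each of 24 gene lists that are first-run peaks (horizontal; list and counts on the vertical axis), beside the percent among all nuclear peaks of the same signal and the 11.6% of all nuclear peaks (dotted line). Runx, Ets and Mecom factors stand at 19.3% against 12%, and suprabasal and cornified genes at 3.76% against 3.83%.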

How the data were processed

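Per the submitters' processing notes, MACS2 2.1.0.20151222, HTSeq, Bowtie2 2.3.4.2, Trimmomatic and Picard were used with build mm10, without stated settings. The authors deposited 1 table of normalized signal for 2 libraries. All values were whole multiples of a per-library step, within 0.01 of a read, so the deposited signal is a read count over 1 factor. The control column bears the number 2, unlike its sample's title, and the Exp column was taken as ablation because the other sample is the control. Columns left unused numbered 0. Table starts may count from 0 or 1.

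Genes, windows and hairpins came from RefSeq tables of GRCm38.p6, the assembly of mm10, with 335 of 338 listed genes matched; no genome sequence was used here. The log2 ratio used a pseudocount of 1 and a filter at the 10th percentile. Ratio intervals are exact Clopper-Pearson intervals of reads; PCR copies are not independent molecules. The value at a list's signal is the mean first-run share over 50 signal classes. No test was run. Named genes follow a rule: the 8 highest, 8 lowest and 8 strongest peaks, the 12 genes with most first-run peaks, and up to 4 genes per list; predicted genes are not named. Peaks and lists were chosen with earlier results of these data known.

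The steps were tested on simulated data. There the weighting to like signal was off by about as much as its 2 versions differ here, and early versions of it or of the simulation missed the set tolerance, after which the finer classes were added and the simulation was changed. Alternatives covered pseudocount, filter, scaling, fold, distances and autosomes. Python 3.11.15, numpy 2.4.6, pandas 2.3.3 and scipy 1.17.1 served.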

Additional observations from a re-analysis of the deposited data

Results flagged for a closer look

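The mitochondrial genome, which no comparison uses, held 31.2% of reads in peaks in ablation against 7.31% in control, and is named here as a signal over that of the control in reads that the nuclear peaks leave out. Its part in the differences was not tested.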

How the results depend on the processing

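Of 41 alternative values 13 stayed close to the reported one, 26 moved and 2 reversed. The median log2 ratio of first-run peaks was 0.73 with a pseudocount of 0.5, 0.59 with 5, 0.76 without the filter, 0.64 with a filter at the 25th percentile, 0.39 after division by table totals and 0.79 by nuclear totals. The count at least 2-fold higher was 1176 with a pseudocount of 5, 3516 without the filter, 469 with the stricter filter and 964 with table totals, and the count lower was 1, 12, 0 and 20 in the same order. At 1.5-fold 3339 were higher and 33 lower, and at 3-fold 507 and 0. The share at gene ends was 4.44% within 500 bp and 21.5% within 5 kb. The share outside genes was 37.6% with all genes of the table and 46.3% past the filter. The share of neighbours in the first run was 16.9% within 10 kb and, added after seeing the data, 16.4% for peaks past the filter. The median log2 ratio of other peaks within 10 kb, reported by distance, was 0.02 in all, 0.037 within 5 kb, 0.039 in the third run alone, and reversed to -0.014 within 50 kb and -0.32 with table totals; the cause was not tested beyond the shift of -0.34 that this scaling brings. No peak stands in more than 1 run, so keeping only first-run peaks that are in no later run left all values as reported, and keeping only those that also stand in a later run left no peak and no value. No paired analysis was possible because each group has 1 library. Depth limits single peaks most: a median of 16 reads in control leaves ratios of single peaks with wide intervals.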
